A study of Homo sapiens with 8 samples.

Results

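The 9 transcripts described here encode core subunits of the Polycomb repressive complexes: EZH1, EZH2, EED and SUZ12 of Polycomb repressive complex 2 (PRC2), and CBX2, CBX7, CBX8, BMI1 and RNF2 of PRC1. They were found by gene symbol, as 9 of the 61228 gene names in the count tables, and all 9 were among the 21307 genes that passed the filter on low counts. RNA was measured in 8 libraries from H1975 and HCC44, established human lung cancer cell lines that the labels give as wild type. Each line was cultured in DMSO, the solvent, or in ACBI1 over 96 hours, which makes 4 groups of 2 replicate libraries. ACBI1 is a degrader that brings the VHL ubiquitin ligase to the SWI/SNF subunits SMARCA4, SMARCA2 and PBRM1, and so depletes remodelling complexes of these proteins. Because it acts on protein, transcript levels do not check the treatment. Its labelled concentration of 1 mM exceeds the usual range of degraders by far, which leaves doubt about the unit. The second ACBI1 library of HCC44 carries a shortened compound name in its title. Nothing in the labels says that replicates came from separate cultures, so p-values measure only the spread between these libraries, which may be technical.

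PRC2 places methyl groups on lysine 27 of histone H3. EZH1 and EZH2 are its alternative catalytic subunits, and EED and SUZ12 are needed for either to work. PRC1 contains the ubiquitin ligase RNF2 (RING1B), a PCGF protein such as BMI1 (PCGF4) and, in its canonical form, a CBX protein that reads the methylated lysine. Polycomb complexes keep developmental regulators and the INK4 cell-cycle inhibitors silent, and genetic studies described SWI/SNF remodellers as their opponents. EZH2 is characteristic of dividing cells, whereas EZH1 is also present in cells that have stopped dividing. The comparisons ask which of these transcripts differ between ACBI1 and DMSO in each line, and whether the lines differ in that response.

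Levels are given as CPM (counts scaled to a common library total), with library sizes scaled by the trimmed mean of M-values (TMM). A change was called where the adjusted p of edgeR's quasi-likelihood test was under 0.05. With ACBI1, EZH1, CBX7 and RNF2 were called higher in both lines, BMI1 higher and CBX8 lower in HCC44, and EZH2, EED, SUZ12 and CBX2 in neither line. In H1975, 3 of 9 rose and 0 fell, where 31.3% of all tested genes were called (14.6% higher and 16.7% lower). In HCC44, 4 of 9 rose and 1 fell, where 34.9% of all tested genes were called (17.5% higher and 17.4% lower). The members' share called was therefore 33.3% in H1975 and 55.6% in HCC44. EZH1, CBX7 and RNF2 were the 3 called higher in both lines, as were 5.83% of all tested genes, and 0 of 9 were called lower in both, where 7.08% of all tested genes were. In the difference between the lines, BMI1 was called higher and CBX8 lower in HCC44, 2 of 9, where 18.6% of all tested genes were called (10.2% higher and 8.4% lower). The median log2 fold change of the 9 was 0.00 in H1975 and 0.21 in HCC44, where the medians of all tested genes were -0.01 and 0.01. It was 0.16 in H1975 without DMSO replicate 2 and 0.21 there with library totals, and 0.41 in HCC44 without ACBI1 replicate 1.

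**Figure D1:**
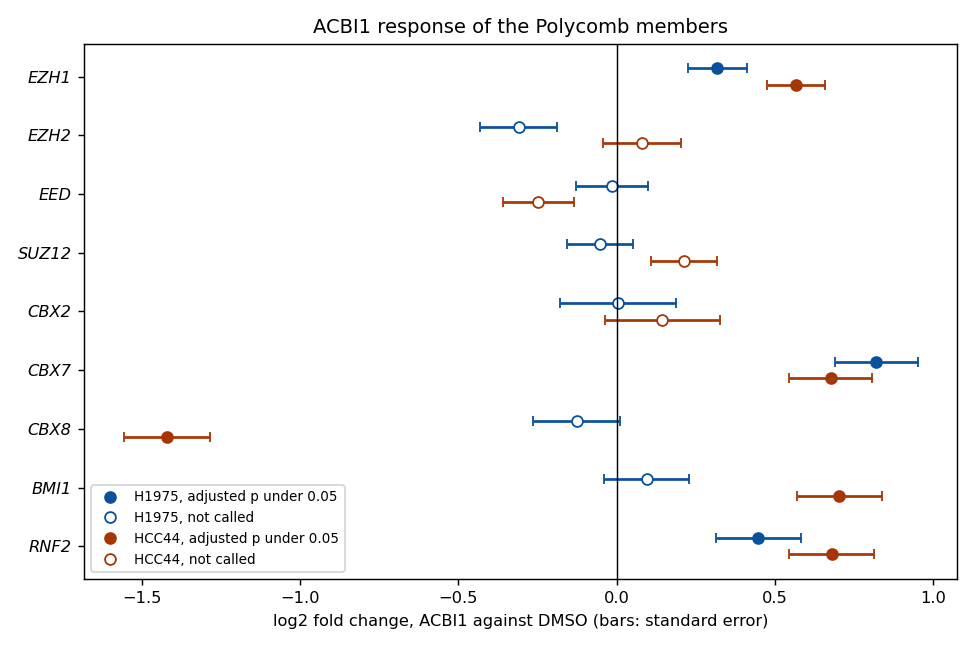
Log2 fold change of each Polycomb transcript, ACBI1 against DMSO, in H1975 and HCC44, with bars for the standard error and filled points for an adjusted p under 0.05. CBX7, RNF2 and EZH1 lie to the right of zero in both lines, and CBX8 reaches -1.42 in HCC44 against -0.13 in H1975.

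Promoter sequence from RefSeq on GRCh38.p14 was at hand for 7 of the 9 genes, with CBX2 and CBX8 missing from the table. Those of EZH1, CBX7 and RNF2, which rose in both lines, are printed beside that of EZH2, which was called in neither. Each stretch is the longest part of the 250 bases before the RefSeq start that holds no annotated exon. On the minus strand these are chr17:42745050-42745290 for EZH1, chr7:148884322-148884541 for EZH2 and chr22:39152681-39152930 for CBX7, and on the plus strand chr1:185045308-185045363 for RNF2. Capitals mark matches to the GC box GGGGCGGGG and to the CCAAT box CCAAT, on either strand.
EZH1 promoter: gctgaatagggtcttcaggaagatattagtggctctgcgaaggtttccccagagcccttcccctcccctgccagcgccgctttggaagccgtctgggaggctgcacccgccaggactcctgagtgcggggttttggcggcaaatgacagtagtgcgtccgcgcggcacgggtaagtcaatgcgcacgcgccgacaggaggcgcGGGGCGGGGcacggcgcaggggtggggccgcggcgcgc
EZH2 promoter: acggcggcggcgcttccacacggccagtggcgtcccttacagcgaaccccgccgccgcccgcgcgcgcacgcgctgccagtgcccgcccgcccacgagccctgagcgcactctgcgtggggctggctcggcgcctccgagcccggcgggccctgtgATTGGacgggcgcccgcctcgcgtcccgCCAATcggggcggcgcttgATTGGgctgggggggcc
CBX7 promoter: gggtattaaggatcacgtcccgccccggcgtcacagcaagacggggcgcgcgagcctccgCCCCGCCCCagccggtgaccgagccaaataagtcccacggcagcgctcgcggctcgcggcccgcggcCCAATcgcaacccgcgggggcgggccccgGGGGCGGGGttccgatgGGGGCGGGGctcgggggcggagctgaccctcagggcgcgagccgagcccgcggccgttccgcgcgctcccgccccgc
RNF2 promoter: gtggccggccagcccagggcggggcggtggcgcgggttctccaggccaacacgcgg

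The EZH1 stretch held 1 GC box and no CCAAT box, the EZH2 stretch held 3 CCAAT boxes and no GC box, the CBX7 stretch held 1 CCAAT box and 3 GC boxes, and the RNF2 stretch held neither. Over the whole window of 250 bases the counts were the same but for EZH2, which held 4 CCAAT boxes. Neither motif was common to all 3 genes that rose in both lines. Over such windows, 33.0% of 27305 RefSeq promoters held a CCAAT box and 15.4% a GC box. The E2F motif, searched as TTTGGCGC or TTTCCCGC on both strands, was in 1.96% of promoters and in SUZ12 alone among the 7. The AP-1 motif TGANTCA was in 6.6% of promoters and in none of the 7. All 7 promoters but that of EED, at 51.2% G and C, were richer in G and C than the median promoter at 58.0%. These are matches of letters, and no binding was measured.

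EZH1, the PRC2 catalytic subunit that is not tied to division, rose in both lines. It lies at chr17:42700275-42745049 on the minus strand (GRCh38), and none of its 6988 exon bases is shared with another gene. EZH1 measured 29.8 and 27.3 CPM in the H1975 DMSO libraries and 35.5 and 35.7 CPM with ACBI1. In HCC44 it measured 47.7 and 46.8 CPM with DMSO and 70.9 and 69.0 CPM with ACBI1. Both ACBI1 libraries were above both DMSO libraries in each line. The log2 fold change was 0.32 ± 0.09 (SE; adjusted p = 0.0242) in H1975 and 0.57 ± 0.09 (adjusted p = 0.000839) in HCC44. The difference between the lines was 0.25 ± 0.13 (adjusted p = 0.219). The HCC44 call held in all 17 alternatives run. The H1975 call was lost on leaving out any 1 of its libraries, with adjusted p of 0.0536 and 0.106 without DMSO replicates 1 and 2, and of 0.0753 and 0.105 without ACBI1 replicates 1 and 2.

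EZH2, the main methyltransferase of proliferating cells, was called in neither line. The gene spans chr7:148807383-148884321 on the minus strand and shares no exon bases. Its levels were 65.9 and 57.7 CPM in H1975 with DMSO and 56.2 and 43.6 CPM with ACBI1, so that the groups did not overlap, although the higher ACBI1 library lay close to the lower DMSO library. In HCC44 it measured 72.8 and 78.2 CPM with DMSO and 80.7 and 78.9 CPM with ACBI1. The log2 fold change was -0.31 ± 0.12 (adjusted p = 0.0786) in H1975 and 0.08 ± 0.12 (adjusted p = 0.659) in HCC44. With no filter on low counts the H1975 value of -0.32 was called (adjusted p = 0.0284). Leaving out each library in turn gave -0.47 to -0.11 in H1975, the lowest without ACBI1 replicate 1. Over all 17 alternatives the H1975 value ran from -0.47 to -0.105, and 3 of them called it. These were the fits with no filter, without ACBI1 replicate 1 and with replicate number as a block. The block gave -0.318 (adjusted p = 0.0074), though the labels do not say that replicate numbers pair samples. The difference between the lines was 0.39 ± 0.17 (adjusted p = 0.146).

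Within a library, the ratio of EZH2 to EZH1 does not depend on scaling. Per kilobase of exon there were 3.42 and 3.26 EZH2 counts for each EZH1 count in H1975 with DMSO and 2.45 and 1.89 with ACBI1. In HCC44 the ratio was 2.36 and 2.58 with DMSO and 1.76 and 1.77 with ACBI1. The ratio was thus lower in each ACBI1 library than in either DMSO library of its line, while EZH2 stayed the more abundant of the pair in all 8 libraries. With 2 libraries against 2 an exact permutation test cannot reach 0.05, so the ratios are given with no test.

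EED, which binds the methylated lysine and stimulates PRC2, and SUZ12, the scaffold of the complex, were called in neither line. EED, at chr11:86244544-86278813 on the plus strand, measured 16.8 and 15.6 CPM in H1975 with DMSO and 15.8 and 16.2 CPM with ACBI1, which overlap. In HCC44 EED measured 26.7 and 28.3 CPM with DMSO and 23.8 and 22.6 CPM with ACBI1, both lower, with a log2 fold change of -0.25 ± 0.11 (adjusted p = 0.112). SUZ12, at chr17:31937018-32001045 on the plus strand, measured 52.4 and 56.4 CPM in H1975 with DMSO and 49.4 and 55.5 CPM with ACBI1. The HCC44 values of SUZ12 were 112.3 and 124.0 CPM with DMSO and 146.3 and 127.4 CPM with ACBI1, both higher, with a log2 fold change of 0.21 ± 0.10 (adjusted p = 0.139). Scaling by library totals alone made the SUZ12 rise in HCC44 a call (0.30, adjusted p = 0.0382). The SUZ12 pseudogene copy SUZ12P1 held 0 to 9 counts per library, so few reads were assigned to it.

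**Figure D2:**
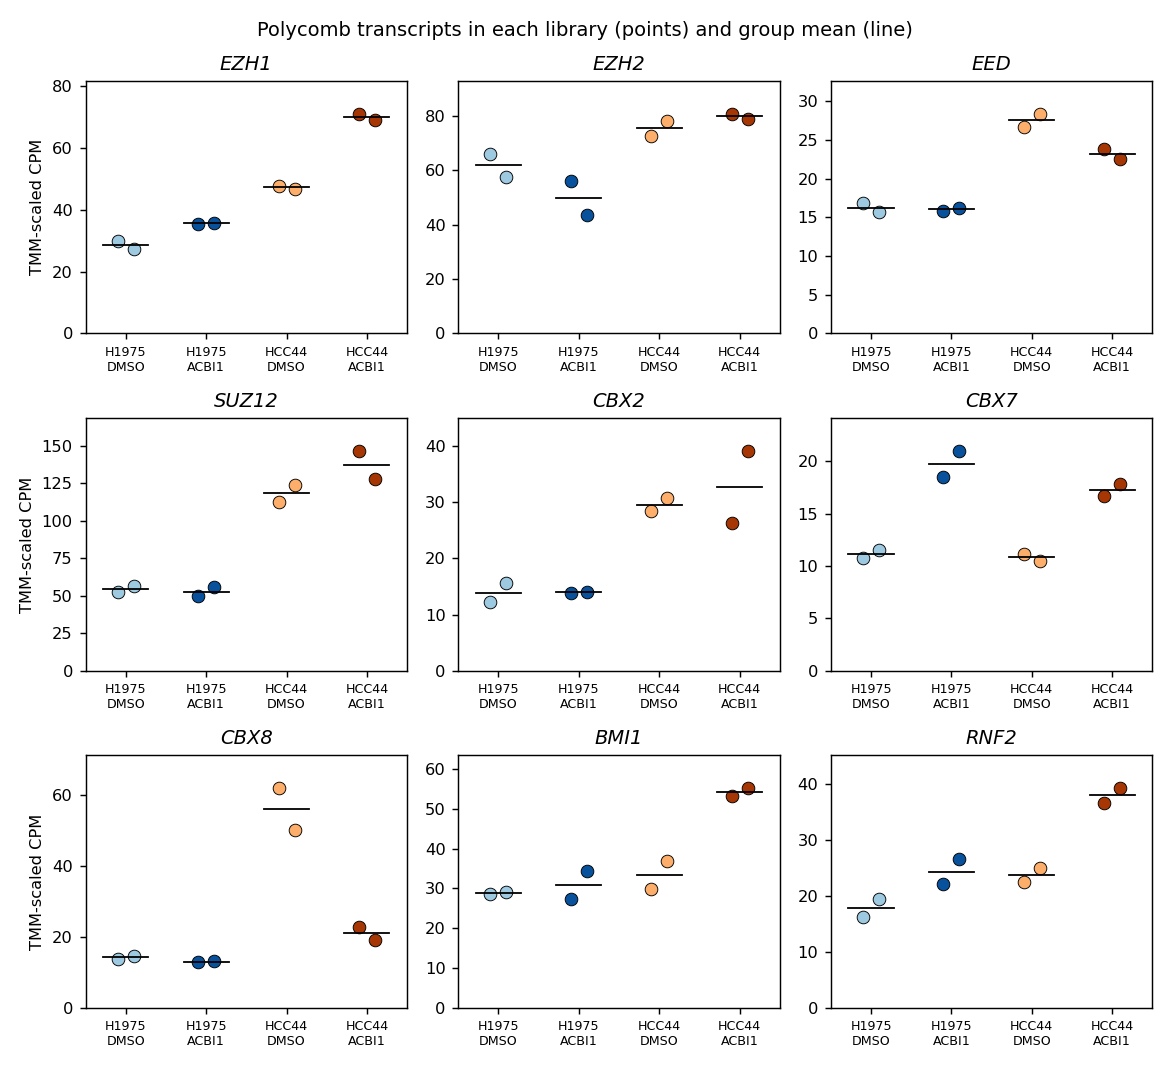
TMM-scaled CPM of the 9 Polycomb transcripts in each of the 8 libraries (points) with the group mean (line), each panel on its own linear axis from 0. CBX8 in HCC44 stands at 61.8 and 50.1 CPM with DMSO and at 22.7 and 19.1 CPM with ACBI1, while its 4 H1975 libraries lie between 12.9 and 14.7 CPM.

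The CBX subunits moved in different directions. CBX7, a reader of methylated lysine 27 that is typical of stem cells and of resting cells, rose in both lines. CBX7 measured 10.8 and 11.5 CPM in H1975 with DMSO and 18.5 and 21.0 CPM with ACBI1. In HCC44 it measured 11.2 and 10.5 CPM with DMSO and 16.7 and 17.9 CPM with ACBI1. No ACBI1 library overlapped a DMSO library. The rise was 1.77-fold in H1975 (log2 0.82 ± 0.13, adjusted p = 0.00107) and 1.60-fold in HCC44 (log2 0.68 ± 0.13, adjusted p = 0.00248), and both calls held in all 17 alternatives run. The difference between the lines was -0.14 ± 0.18 (adjusted p = 0.647). CBX7 lies at chr22:39120167-39152674 on the minus strand. In GENCODE 29, 21.6% of its 7461 exon bases overlap other genes, 1338 of them the antisense gene AL031846.2, a name not among the rows used here, and reads from it could not be told apart without strand.

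CBX8, another reader of methylated lysine 27, fell in HCC44. The 2 HCC44 DMSO libraries held 61.8 and 50.1 CPM and the ACBI1 libraries 22.7 and 19.1 CPM. In H1975 CBX8 measured 13.6 and 14.7 CPM with DMSO and 12.9 and 13.0 CPM with ACBI1. Every HCC44 library was above every H1975 library, and the HCC44 ACBI1 libraries lay nearest to H1975. The HCC44 fall was 2.68-fold (log2 -1.42 ± 0.14, adjusted p = 3e-05), and the H1975 value was -0.13 ± 0.14 (adjusted p = 0.517). The difference between the lines was itself called, at -1.29 ± 0.19 (adjusted p = 0.00147). In all 17 alternatives for HCC44 and all 16 for the difference, the values were called, from -1.56 to -1.27 and from -1.43 to -1.14.

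CBX2, a CBX protein able to compact chromatin, was called in neither line. It measured 12.2 and 15.6 CPM in H1975 with DMSO and 13.9 and 14.01 CPM with ACBI1. In HCC44 it measured 28.5 and 30.8 CPM with DMSO and 26.3 and 39.2 CPM with ACBI1. The groups overlapped in both lines, and the HCC44 log2 fold change of 0.14 ± 0.18 (adjusted p = 0.583) was -0.17 without ACBI1 replicate 2. CBX2 (chr17:79778132-79787983, plus strand) and CBX8 (chr17:79792132-79801683, minus strand) lie near each other, with 4148 bases between them. Of this pair, CBX8 alone was called in HCC44.

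BMI1, the PCGF subunit that stabilises canonical PRC1 and is known for restraining the INK4 locus, rose in HCC44. It measured 29.8 and 36.8 CPM in HCC44 with DMSO and 53.2 and 55.2 CPM with ACBI1. In H1975 BMI1 measured 28.7 and 29.1 CPM with DMSO and 27.4 and 34.3 CPM with ACBI1, which overlap. The rise was 1.63-fold in HCC44 (log2 0.70 ± 0.13, adjusted p = 0.00215), against 0.09 ± 0.13 (adjusted p = 0.635) in H1975. The difference between the lines was 0.61 ± 0.19 (adjusted p = 0.0462). That call was lost with RLE factors, library totals or non-robust dispersion (adjusted p = 0.0605, 0.0775 and 0.051) and on leaving out any 1 of 6 libraries. Without both DMSO replicates of H1975 in turn it was 0.62 and 0.55 (adjusted p = 0.0845 and 0.118), without H1975 ACBI1 replicate 1 0.42 (adjusted p = 0.196), without HCC44 DMSO replicate 1 0.46 (adjusted p = 0.174), and without each HCC44 ACBI1 library 0.64 and 0.58 (adjusted p = 0.0627 and 0.0994).

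BMI1 lies at chr10:22321211-22331484 on the plus strand. The read-through gene COMMD3-BMI1 covers 1000 of its exon bases (23.3%) and held 0 counts in all 8 libraries, so reads in the shared bases may have been left out of the BMI1 counts. COMMD3, which ends 902 bases before BMI1 starts, measured 4.44 and 4.33 CPM in HCC44 with DMSO and 8.29 and 7.91 CPM with ACBI1. It rose there by 0.89 ± 0.18 on the log2 scale (adjusted p = 0.00336). In H1975, where BMI1 was not called, COMMD3 also rose, by 0.56 ± 0.18 (adjusted p = 0.0404). That call was lost with no filter on low counts (adjusted p = 0.0558) and with each line fitted alone (adjusted p = 0.0619). It was also lost without H1975 DMSO replicate 1 (0.387), without either H1975 ACBI1 library (0.559 and 0.607) and without either HCC44 DMSO library (0.556 and 0.555). COMMD3 shares 27.3% of its exon bases with COMMD3-BMI1.

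RNF2, the ligase that places ubiquitin on histone H2A, rose in both lines. It lies at chr1:185045364-185102608 on the plus strand and shares no exon bases. It measured 16.3 and 19.4 CPM in H1975 with DMSO and 22.1 and 26.6 CPM with ACBI1. In HCC44 RNF2 measured 22.5 and 25.0 CPM with DMSO and 36.7 and 39.3 CPM with ACBI1. Both ACBI1 libraries were higher in each line. The rise was 1.36-fold in H1975 (log2 0.45 ± 0.13, adjusted p = 0.0275) and 1.60-fold in HCC44 (log2 0.68 ± 0.13, adjusted p = 0.00271), with a difference of 0.23 ± 0.19 (adjusted p = 0.444). The H1975 call was lost without DMSO replicate 1 (0.32, adjusted p = 0.201) and without ACBI1 replicate 2 (0.33, adjusted p = 0.212). RING1, the paralogue of RNF2, gave -0.41 ± 0.11 (adjusted p = 0.0176) in H1975 and -0.08 ± 0.11 (adjusted p = 0.624) in HCC44, and was named after its values were seen and not refitted under the alternatives.

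Across the 9 genes, the ACBI1 and DMSO libraries of H1975 did not overlap for 5, EZH1, CBX7 and RNF2 being higher and EZH2 and CBX8 lower with ACBI1. Over all tested genes this was the case for 67.3% (33.1% higher and 34.2% lower). In HCC44 they did not overlap for 8 of 9, all but CBX2, with 6 higher and 2 lower. Over all tested genes the HCC44 share was 66.8% (34.1% higher and 32.7% lower).

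In the ratios of alternative PRC1 subunits, per kilobase of exon, CBX8 to CBX7 was lower in each ACBI1 library than in either DMSO library of its line. There were 9.91 and 8.58 CBX8 counts per CBX7 count in HCC44 with DMSO, and 2.44 and 1.92 with ACBI1. In H1975 the same ratio was 2.26 and 2.28 with DMSO and 1.25 and 1.11 with ACBI1. CBX2 to CBX7 was lower with ACBI1 in the same way, at 0.99 and 0.88 after 1.48 and 1.78 in H1975, and at 2.07 and 2.87 after 3.34 and 3.85 in HCC44. BMI1 to PCGF2, its closest paralogue, was 0.22 and 0.31 in HCC44 with DMSO and 0.39 and 0.43 with ACBI1. In H1975 it was 0.46 and 0.42 with DMSO and 0.38 and 0.40 with ACBI1. Of the exon bases, 45.7% in PCGF2, 23.3% in BMI1 and 21.6% in CBX7 overlap other genes, which limits the ratios with these genes.

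**Figure D3:**
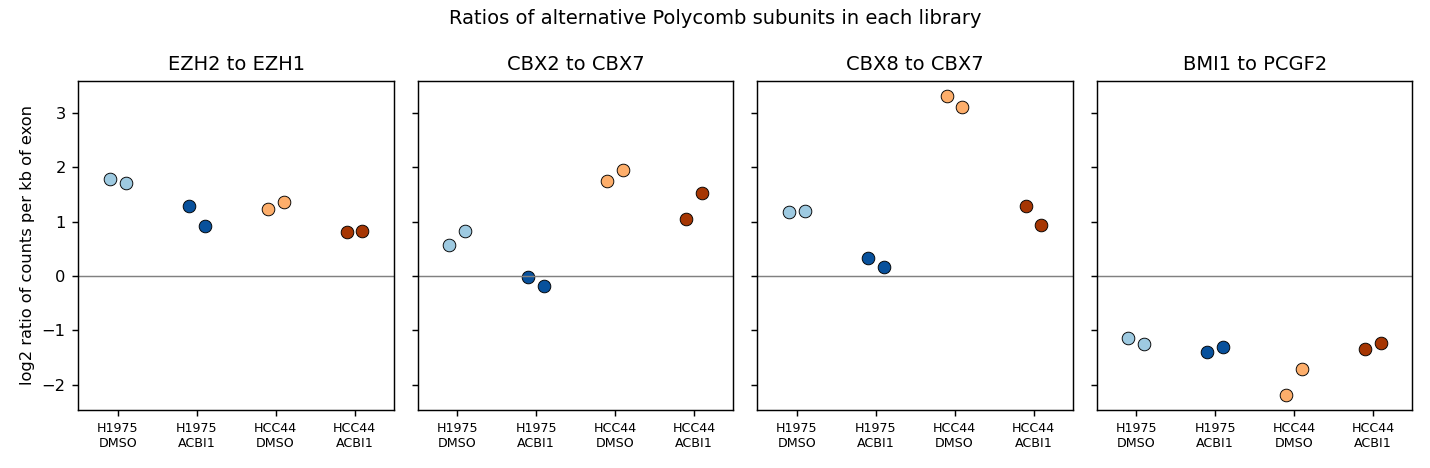
Log2 ratios of counts per kilobase of exon for pairs of alternative Polycomb subunits, 1 point per library, by line and treatment. CBX8 to CBX7 in HCC44 stands at 3.31 and 3.10 with DMSO and at 1.29 and 0.94 with ACBI1, and EZH2 to EZH1 is lower with ACBI1 in both lines.

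Per kilobase of exon, the untreated lines differed in the order of these transcripts. In H1975 with DMSO the highest was EZH2 at 13.7 ± 1.28 CPM per kb (SD, n = 2), then SUZ12 at 8.31 ± 0.43 and BMI1 at 6.75 ± 0.07. RNF2 at 4.39 ± 0.55 and EZH1 at 4.09 ± 0.25 lay within each other's spread, as did CBX2 at 2.44 ± 0.43 and EED at 2.31 ± 0.12, with CBX8 between these pairs at 3.40 ± 0.18 and CBX7 lowest at 1.497 ± 0.07. In HCC44 with DMSO the highest were SUZ12 at 18.1 ± 1.26 and EZH2 at 16.7 ± 0.85, which did not differ beyond their spread, and then CBX8 at 13.4 ± 1.98. BMI1 at 7.77 ± 1.16 and EZH1 at 6.76 ± 0.08 came next, then RNF2 at 5.83 ± 0.43, CBX2 at 5.21 ± 0.28, EED at 3.92 ± 0.16 and CBX7 at 1.45 ± 0.07. With ACBI1, CBX8 in HCC44 stood at 5.02 ± 0.61 CPM per kb, below the 13.4 ± 1.98 of the DMSO libraries and within the spread of CBX2 at 5.75 ± 1.60, and CBX7 remained lowest at 2.32 ± 0.11. In H1975 with ACBI1, CBX7 at 2.64 ± 0.24 stood at place 7, above EED at 2.29 ± 0.04, with CBX2 at 2.45 ± 0.02 within its spread. The lengths merge the exons of all annotated transcripts of a gene, and the order between genes may depend on that choice. They also include bases shared with other genes, 21.6% for CBX7 and 23.3% for BMI1, which limits their levels per kb.

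Between the lines with DMSO, 6 of 9 were called higher in HCC44 and 0 lower, where 67.9% of all tested genes were called (31.6% higher and 36.4% lower). The DMSO libraries of the lines did not overlap for 8 of 9, all higher in HCC44 and all but CBX7, where 84.9% of all tested genes did not overlap (39.9% higher and 45% lower). These comparisons use the same DMSO libraries as those above. The largest was CBX8, 3.96-fold higher (log2 1.98 ± 0.14, adjusted p = 3.18e-07), followed by SUZ12 at 1.12 ± 0.10 (adjusted p = 3.2e-06) and CBX2 at 1.09 ± 0.18 (adjusted p = 0.00031). EED at 0.76, EZH1 at 0.73 and RNF2 at 0.41 were also called. The RNF2 call was lost without H1975 DMSO replicate 1 (0.28, adjusted p = 0.163) and without HCC44 DMSO replicate 2 (0.33, adjusted p = 0.124), and with library totals (0.29, adjusted p = 0.0661). EZH2 at 0.29 ± 0.12 (adjusted p = 0.0556), BMI1 at 0.20 (adjusted p = 0.197) and CBX7 at -0.05 (adjusted p = 0.774) were not called. The EZH2 value was called without H1975 DMSO replicate 1 (0.38, adjusted p = 0.0428) and without either H1975 ACBI1 library (0.315 and 0.316, adjusted p = 0.0193 and 0.0191). It was also called with RLE factors (0.30, adjusted p = 0.0418) and with no filter (0.28, adjusted p = 0.0351). Line and culture cannot be told apart here.

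Transcripts of cell division moved with ACBI1 in HCC44. Of 35 proliferation markers, 31 rose in HCC44 and 0 fell, or 88.6% called beside 34.9% of all tested genes, with a median log2 fold change of 1.46. In H1975 5 rose and 1 fell, or 17.1% called beside 31.3% of all tested genes, with a median of 0.04. Their summed level in HCC44 was 1493 and 1857 CPM with DMSO and 3208 and 3765 CPM with ACBI1. In H1975 it was 3000 and 2791 CPM with DMSO and 3244 and 2733 CPM with ACBI1, which overlap. MKI67, the marker of cycling cells, measured 18.98 and 32.1 CPM in HCC44 with DMSO and 87.3 and 150.7 CPM with ACBI1. E2F1, an activator of replication genes, rose in both lines, by 0.76 (adjusted p = 0.00127) and 1.46 (adjusted p = 1.81e-05) on the log2 scale. MCM2, a subunit of the replicative helicase, rose by 0.42 (adjusted p = 0.00602) in H1975 and 0.68 (adjusted p = 0.000262) in HCC44. The H1975 value of MCM2 was 0.37 (adjusted p = 0.0504) without DMSO replicate 1. EZH2, often counted with these genes, differed by 0.08 ± 0.12 in HCC44 while MKI67 rose by 2.22 ± 0.33 (adjusted p = 0.00211). In bulk RNA more dividing cells and more RNA per dividing cell cannot be told apart, and the part of division in the rises of EZH1, CBX7, BMI1 and RNF2 or in the fall of CBX8 was not tested.

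Of 38 other Polycomb genes, 36 were tested, all but EZHIP and ASXL3. In H1975 8 rose and 7 fell, beside 31.3% of all tested genes called, and in HCC44 6 rose and 10 fell, beside 34.9%. Leaving out H1975 ACBI1 replicate 2 gave 8 calls in H1975, and leaving out HCC44 DMSO replicate 2 or ACBI1 replicate 1 gave 8 or 10 calls in HCC44. The median was -0.09 in H1975 and -0.07 in HCC44. Among the PRC2 accessory genes, JARID2, which helps recruit the complex, fell in both lines. JARID2 measured 49.1 and 56.9 CPM in H1975 with DMSO and 28.8 and 37.7 CPM with ACBI1, and 89.9 and 89.8 CPM in HCC44 with DMSO and 50.2 and 46.7 CPM with ACBI1. The log2 fold changes were -0.67 ± 0.13 (adjusted p = 0.00292) and -0.89 ± 0.13 (adjusted p = 0.000407).

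PHF19, a Polycomb-like protein of the alternative PRC2.1 form, rose in both lines. It measured 57.8 and 56.0 CPM in H1975 with DMSO and 83.9 and 83.0 CPM with ACBI1, and 61.0 and 70.4 CPM in HCC44 with DMSO and 103.7 and 126.6 CPM with ACBI1. The log2 fold changes were 0.55 ± 0.11 (adjusted p = 0.0038) and 0.81 ± 0.11 (adjusted p = 0.000297). EPOP, also of PRC2.1, rose by 0.73 (adjusted p = 0.00323) in H1975 and by 0.54 (adjusted p = 0.012) in HCC44. The HCC44 call of EPOP was lost without DMSO replicate 2 (0.48, adjusted p = 0.0953) and without ACBI1 replicate 1 (0.44, adjusted p = 0.0768). MTF2 and PHF1, the Polycomb-like paralogues of PHF19, went the other way. MTF2 gave -0.40 (adjusted p = 0.0274) in H1975 and -0.06 (adjusted p = 0.75) in HCC44. PHF1 gave -0.12 (adjusted p = 0.427) in H1975 and -0.45 (adjusted p = 0.00565) in HCC44. Both were named after their values were seen and not refitted under the alternatives. KDM6B, a demethylase that removes the PRC2 mark, fell by 0.66 (adjusted p = 0.000336) in H1975. In HCC44 its value was -0.33 (adjusted p = 0.0129), and the call was lost without DMSO replicate 2 (-0.30, adjusted p = 0.093) and without ACBI1 replicate 1 (-0.27, adjusted p = 0.0646).

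Among the PRC1 partners, the Polyhomeotic paralogues differed from each other. PHC2 fell in H1975 by 0.56 ± 0.08 (adjusted p = 0.000543) and gave 0.17 ± 0.08 (adjusted p = 0.131) in HCC44. PHC3 fell in HCC44 by 0.61 ± 0.11 (adjusted p = 0.00172) and gave 0.06 ± 0.11 (adjusted p = 0.738) in H1975. PHC1 rose in both lines, by 0.41 ± 0.14 (adjusted p = 0.0395) in H1975 and by 0.67 ± 0.13 (adjusted p = 0.00292) in HCC44, and 18.1% of its exon bases overlap M6PR. SCMH1, a partner of Polyhomeotic, rose by 0.40 ± 0.12 (adjusted p = 0.0239) in H1975 and by 0.66 ± 0.12 (adjusted p = 0.00128) in HCC44. CBX6 rose by 0.49 ± 0.10 (adjusted p = 0.00433) in H1975 and by 0.37 ± 0.10 (adjusted p = 0.0157) in HCC44. Single libraries ended some of these calls. In H1975, leaving out DMSO replicate 1 or ACBI1 replicate 2 gave adjusted p of 0.207 and 0.283 for PHC1 and of 0.17 and 0.152 for SCMH1, and leaving out either HCC44 DMSO library gave 0.053 and 0.0528 for PHC1. In HCC44, leaving out either DMSO library or ACBI1 replicate 1 gave adjusted p of 0.0942, 0.0782 and 0.108 for CBX6. SCML2, a partner of canonical PRC1, measured 5.06 and 5.22 CPM in H1975 with DMSO and 10.97 and 11.2 CPM with ACBI1 (log2 1.11 ± 0.21, adjusted p = 0.00278). In HCC44 SCML2 was lower, at 1.86 and 2.085 CPM with DMSO and 3.585 and 2.297 CPM with ACBI1. Its HCC44 value of 0.58 ± 0.23 (adjusted p = 0.0716) was not called, nor was the difference between the lines (-0.53 ± 0.31, adjusted p = 0.266). MGA, a DNA-binding subunit of the variant complex that holds PCGF6, fell in HCC44 by 0.71 ± 0.12 (adjusted p = 0.000991). PCGF5, a paralogue of BMI1 named after its values were seen, was the 1 gene of the list called in opposite directions. It measured 28.6 and 32.9 CPM in H1975 with DMSO and 39.1 and 45.4 CPM with ACBI1 (log2 0.46, adjusted p = 0.0264), and 51.9 and 63.1 CPM in HCC44 with DMSO and 39.4 and 47.0 CPM with ACBI1 (-0.41, adjusted p = 0.0362). Both calls of PCGF5 depended on single libraries, with adjusted p of 0.161 and 0.155 in H1975 without DMSO replicate 1 and ACBI1 replicate 2, and of 0.289 and 0.199 in HCC44 without DMSO replicate 2 and ACBI1 replicate 1.

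**Figure D4:**
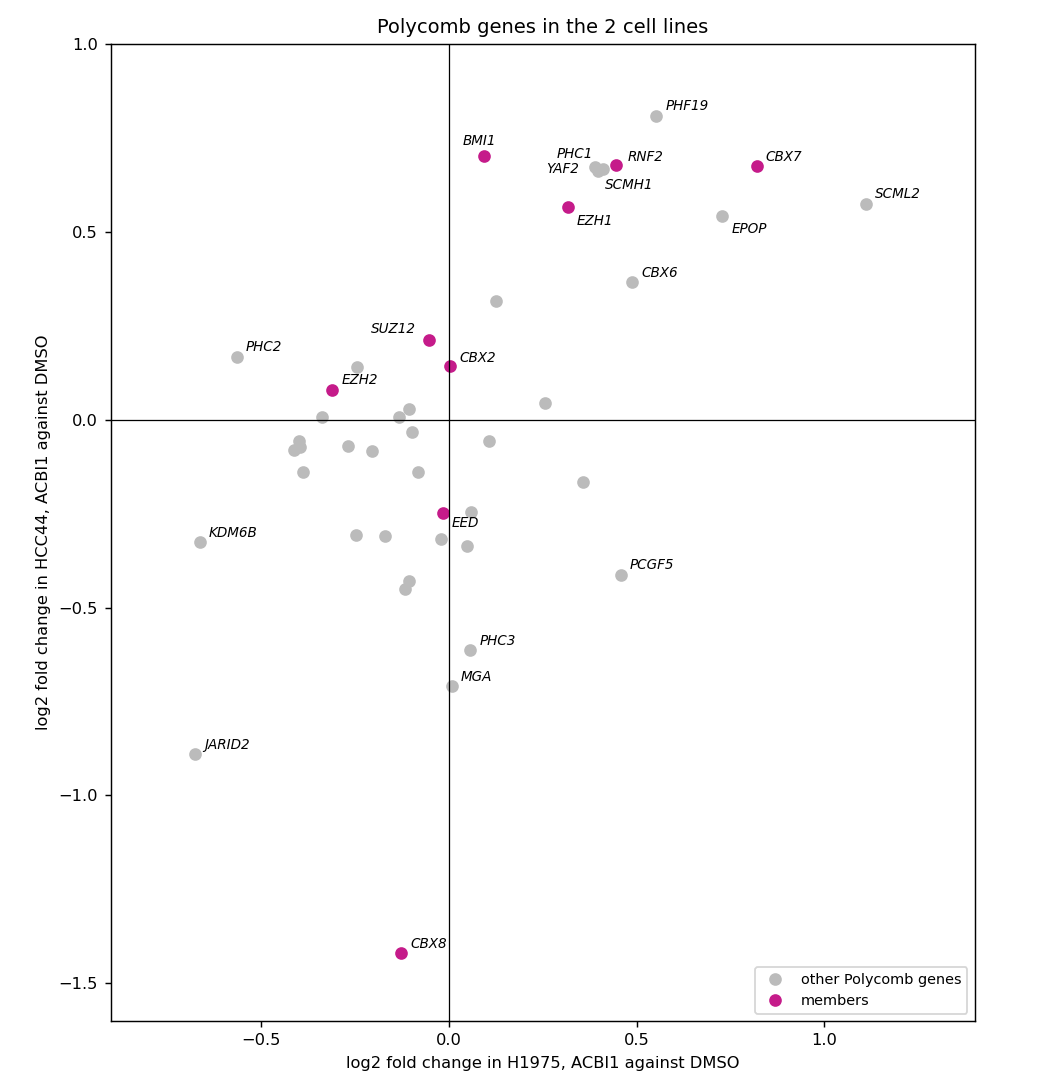
Log2 fold change with ACBI1 in H1975 (horizontal) and in HCC44 (vertical) for the 9 members and 36 other tested Polycomb genes, 1 point per gene. CBX7 at 0.82 and 0.68 stands to the upper right, JARID2 at -0.67 and -0.89 to the lower left, and CBX8 at -0.13 and -1.42 at the bottom.

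Genes known as Polycomb targets in embryonic and other cells, with HOX genes left out of the list, gave no common direction. Of 40 such genes 22 were tested, the rest being too low in these lines. A gene could pass the filter through 1 line alone. EN1 held 0 counts in every HCC44 library, MSX2 held 0 or 1 there, and EOMES held 0 or 1 in H1975. Genes with so few counts could hardly be called in that line, yet they enter its share and median. In H1975 2 rose and 4 fell, or 27.3% called beside 31.3% of all tested genes, and in HCC44 4 rose and 4 fell, or 36.4% beside 34.9%, which is near the background. The medians were -0.04 and -0.16. CDKN2B, an INK4 inhibitor of cyclin-dependent kinases, measured 60.5 and 72.8 CPM in HCC44 with DMSO and 208.6 and 303.7 CPM with ACBI1, a rise of 1.94 ± 0.17 on the log2 scale (adjusted p = 3.04e-05). In H1975 it measured 35.1 and 34.5 CPM with DMSO and 22.8 and 25.4 CPM with ACBI1 (log2 -0.53, adjusted p = 0.0348), a call lost on leaving out any 1 of the 4 H1975 libraries (adjusted p = 0.0771 to 0.177). CDKN2A, its INK4 neighbour, measured 266.9 and 318.7 CPM in HCC44 with DMSO and 414.7 and 528.9 CPM with ACBI1 (log2 0.69 ± 0.12, adjusted p = 0.00166), against 0.27 (adjusted p = 0.13) in H1975, with 7.88% of its exon bases shared with CDKN2B-AS1. CDKN2B, CDKN2A and BMI1, which is known to restrain them, were all higher with ACBI1 in HCC44. Whether BMI1 acted on these genes here was not tested.

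GATA6, an endoderm regulator, measured 21.9 and 28.1 CPM in H1975 with DMSO and 12.9 and 15.5 CPM with ACBI1, and 37.3 and 39.5 CPM in HCC44 with DMSO and 60.6 and 84.7 CPM with ACBI1. It fell by 0.82 (adjusted p = 0.00556) in H1975 and rose by 0.92 (adjusted p = 0.00209) in HCC44, with 14.2% of its exon bases shared with GATA6-AS1 and AC091588.3. LHX2, a developmental regulator, rose in both lines. In H1975 it went from 3.14 and 1.95 CPM to 7.52 and 6.97 CPM (log2 1.51 ± 0.33, adjusted p = 0.00571), and in HCC44, where it was near 0, from 0.079 and 0.047 CPM to 1.02 and 0.44 CPM (log2 3.49 ± 0.58, adjusted p = 0.00094). TBX15 fell in both lines, by 1.41 (adjusted p = 0.000261) in HCC44 and by 2.06 (adjusted p = 0.00173) in H1975, where all 4 libraries were under 1 CPM. In HCC44 PAX9 fell by 1.01 (adjusted p = 0.000577) and MEIS1 by 1.05 (adjusted p = 0.00105). Histone methylation was not measured.

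**Figure D5:**
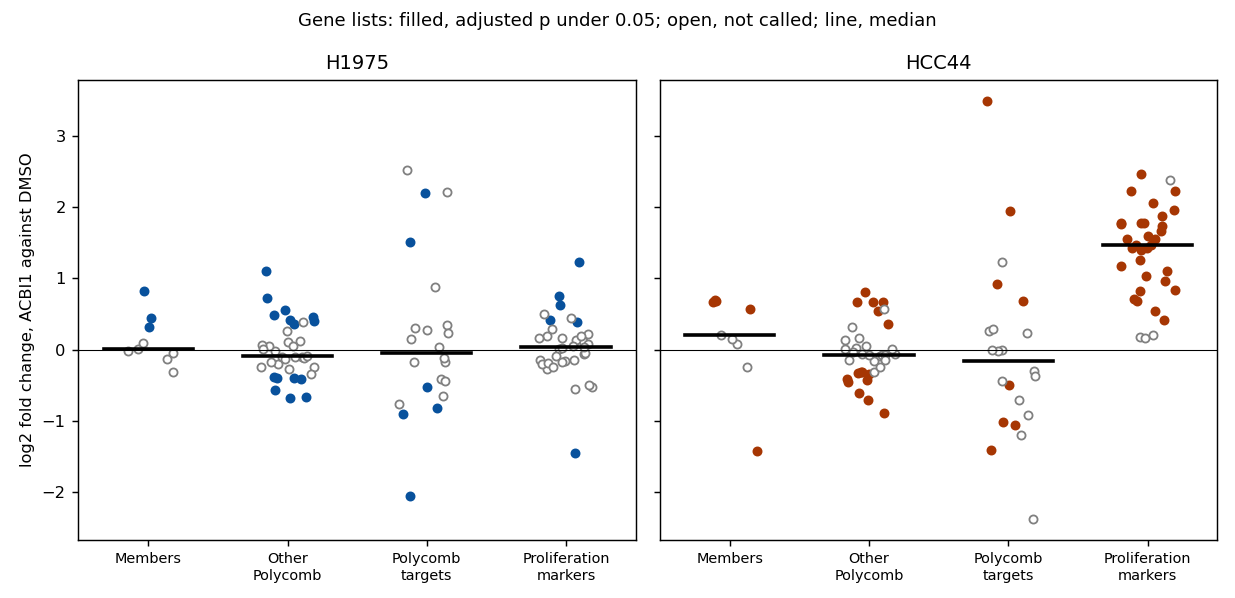
Log2 fold change with ACBI1 of each tested gene in 4 lists, with H1975 on the left and HCC44 on the right, filled points for an adjusted p under 0.05 and a line at the list's median. The proliferation markers of HCC44 have a median of 1.46, while the members, the other Polycomb genes and the targets have medians between -0.16 and 0.21 in both lines.

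By Pearson's r of log2 CPM centred within each line, over the 8 libraries and the 11658 genes that averaged 5 CPM or more, the gene most like CBX8 was GPATCH1 (0.99), and the gene most like CBX7 was C5 (1.00). For 6 of the others these were DPY19L2P2 for EZH1 (1.00), PHLDA2 for EED (0.99), BAG2 for SUZ12 (0.98), ZNF2 for CBX2 (0.97), SH3BGRL for BMI1 (0.99) and AFAP1L1 for RNF2 (1.00). Every pair shares libraries and depth, and with 8 points and so many genes high values are given as a description only.

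The libraries held 62467286 to 70455517 counts assigned to genes. No library was a copy of its replicate: chi-square over degrees of freedom lay at 15.6 to 30.7 for the 4 pairs, above sampling noise. All 6 epithelial markers were above 1 CPM in every library, with sums of 2331 to 5393 CPM in H1975 and 939.8 to 1658 CPM in HCC44. The leukocyte markers summed to 0.126 to 1.13 CPM with CD3E at 0, the endothelial ones to 0.439 to 4.01 CPM, and the fibroblast ones to 25.4 to 406.5 CPM, nearly all COL1A1, with DCN at 0. Some of these genes moved with ACBI1. In H1975 KRT7, KRT8, KRT18 and KRT19 fell by 1.07, 1.07, 1.24 and 1.03 on the log2 scale (adjusted p = 0.00185, 2.24e-05, 4.27e-05 and 0.00815), and in HCC44 KRT7 rose by 1.09 (adjusted p = 0.00129) and KRT8 fell by 0.52 (adjusted p = 0.00103). COL1A1 fell in H1975 by 1.13 (adjusted p = 0.0485) and rose in HCC44 by 1.91 (adjusted p = 0.0055). Their part in the Polycomb results was not tested.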

How the data were processed

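RNA was measured in 8 libraries of H1975 and HCC44, 2 per group. The authors deposited 1 table per library with raw read counts for each gene name. TopHat2 2.1.1, HTSeq 0.11.0 and hg38 are named per the submitters' processing notes, without their roles. The annotation and strand setting are not given in the sources used here, so genes that overlap others are uncertain. The 5 summary rows of each table held 14.3 to 15.8% of its total and were left out. Gene counts totalled 62467286 to 70455517 per library. Tests used edgeR 4.0.16 in R 4.3.3 with filterByExpr, TMM factors, 1 mean per group over all 8 libraries (4 residual degrees of freedom), the two-sided robust quasi-likelihood F-test and Benjamini-Hochberg adjustment over 21307 genes at 0.05. The standard error is the log2 fold change divided by the square root of F. Exon lengths, merged over all annotated transcripts of a gene, and overlaps came from GENCODE 29, and promoters from RefSeq on GRCh38.p14. The procedure was tested on simulated counts in which far fewer genes changed than were called here, so that test does not check the scaling.

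The members and lists were chosen with earlier results of these data known. Named were the 9 members, up to 12 called other Polycomb genes with the largest change and at least 5 CPM in a group, the 3 largest rises and falls among Polycomb targets per line, 5 proliferation markers and the most correlated gene of each member. Some genes that this rule names are not reported here. Alternatives were DESeq2 1.42.0, RLE and upper-quartile factors, library totals, other filters, each line alone, the replicate block, non-robust dispersion, a threshold of 0.01 and each library left out. Figures were drawn with matplotlib 3.10.9.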

Additional observations from a re-analysis of the deposited data

Results flagged for a closer look

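For the genes below the ACBI1 response differed between the lines by the test of the difference itself (edgeR's quasi-likelihood test, HCC44 minus H1975 on the log2 scale), as it did for 18.6% of all tested genes. Of the 9 core Polycomb genes, CBX8 differed by -1.29 (adjusted p = 0.00147) and BMI1 by 0.61 (adjusted p = 0.0462).

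Of the other Polycomb genes, PHC2 differed by 0.73 (adjusted p = 0.00185), MGA by -0.72 (adjusted p = 0.014), PHC3 by -0.67 (adjusted p = 0.0149), PCGF5 by -0.87 (adjusted p = 0.0111) and KDM2B by -0.52 (adjusted p = 0.0363). Leaving out single libraries ended these calls for MGA (HCC44 DMSO replicate 1, adjusted p = 0.0608), for PHC3 (H1975 ACBI1 replicate 2, adjusted p = 0.0507, and HCC44 DMSO replicate 2, adjusted p = 0.0754), for PCGF5 (HCC44 DMSO replicate 2, adjusted p = 0.0549) and for KDM2B (7 of the 8 libraries). PCGF5 and KDM2B were named after their values were seen.

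Of the Polycomb targets, CDKN2B differed by 2.47 (adjusted p = 0.000219), GATA6 by 1.74 (adjusted p = 0.00132), MEIS1 by -0.88 (adjusted p = 0.0305) and PAX9 by -0.84 (adjusted p = 0.0226). The MEIS1 call was lost without any 1 of 6 libraries and the PAX9 call without any 1 of 4.

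Of the proliferation markers, MKI67 differed by 2.37 (adjusted p = 0.0131), CCNB1 by 1.77 (adjusted p = 0.018), TOP2A by 1.61 (adjusted p = 0.0455) and E2F1 by 0.71 (adjusted p = 0.0183). Leaving out 1 library ended the call for each of these 4: any of the 4 H1975 libraries for MKI67, either H1975 DMSO library for CCNB1, 6 of the 8 libraries for TOP2A, and H1975 ACBI1 replicate 2 or HCC44 DMSO replicate 1 for E2F1. The MKI67 call was also lost with no filter (adjusted p = 0.103), and the TOP2A call with no filter, RLE factors and library totals (adjusted p = 0.234, 0.0512 and 0.0591).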

How the results depend on the processing

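Of 630 alternative values for the 9 core Polycomb genes, 578 kept their direction and side of the threshold, 22 lost the call, 10 gained one and 20 changed sign, and all 32 ratio values kept their direction. The calls of CBX7 in both lines, of EZH1, BMI1 and RNF2 in HCC44, and of CBX8 in HCC44 and in the difference held in every alternative run. With library totals as the only scaling, the median of all genes moved up by 0.20 (H1975) and 0.09 (HCC44). Rises made up 72.3% of the H1975 calls in place of 46.6%, and 60.5% of the HCC44 calls in place of 50%. With upper-quartile factors these shares were 56.3 and 56.2%. The causes of the changes below were not tested.

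At a threshold of 0.01, by construction fewer genes were called: 1 member, 7 other Polycomb genes and 3691 genes in all in H1975, 8 other Polycomb genes and 4681 genes in HCC44, and 1 member, 1 other Polycomb gene, 3 targets, 10 proliferation markers and 1654 genes in the difference between the lines. With no filter 11 targets were called in H1975. RLE factors, library totals and non-robust dispersion each left 1 member called in the difference.

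Replicate numbers are not said to mark a shared batch or day. Deviations of same-numbered libraries correlated at 0.589 in H1975 and 0.205 in HCC44. With the replicate block 10 targets and 12 proliferation markers were called in H1975, and 11 other Polycomb genes and 6358 genes in all in the difference. EZH2 was called under the block in H1975 (-0.318, adjusted p = 0.0074) and in the difference (0.399, adjusted p = 0.0188). The block gave CBX7 0.024, YAF2 -0.014 and MEIS1 0.002 between the untreated lines, where their signs changed.

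None of the other values that changed sign was a call. In H1975 EED was 0.019 with RLE factors, 0.056 with upper-quartile factors, 0.188 with library totals, 0.005 with a filter of 1 CPM and 0.02 with DESeq2. SUZ12 was 0.15 with library totals and 0.019 with upper-quartile factors, and CBX2 was 0 with no filter. Library totals also gave CBX8 0.077, MEIS1 0.031, PAX9 0.034 and MKI67 0.059.

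Leaving out each library in turn gave sign changes for values that were not called, over ranges of -0.054 to 0.281 for BMI1, -0.17 to 0.247 for CBX2, -0.018 to 0.037 for EED, -0.128 to 0.202 for MGA, -0.336 to 0.073 for MKI67, -0.281 to 0.003 for PAX9, -0.006 to 0.172 for PHC3 and -0.117 to 0.062 for SUZ12 in H1975, and -0.172 to 0.406 for CBX2 in HCC44. In the difference they were -0.174 to 0.403 for CBX2 and -0.262 to 0.011 for CBX6, and between the untreated lines -0.101 to 0.055 for CBX7, -0.101 to 0.056 for MCM2, -0.237 to 0.036 for MEIS1 and -0.033 to 0.306 for YAF2. Counts of calls ranged from 1 to 3 members, 8 to 19 other Polycomb genes, 3 to 7 proliferation markers and 3690 to 7161 genes in all in H1975, the lowest of all genes without ACBI1 replicate 2. In HCC44 they ranged from 8 to 16 other Polycomb genes and 4945 to 7342 genes in all, the lowest without DMSO replicate 2. In the difference they ranged from 1 to 2 members, 2 to 7 other Polycomb genes, 3 to 8 targets, 12 to 30 proliferation markers and 2341 to 4134 genes in all.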
